A study of Mus musculus with 15 samples.

Results

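The transcripts of 32 genes of glucose uptake, glycolysis, lactate, pyruvate entry, the pentose phosphate pathway and their control by HIF and MYC were followed in Foxp3-positive regulatory T cells (Tregs) from 3 tissues. The members are a list of gene names drawn up by pathway, with earlier results of these data known, and all 32 were found among the 45706 gene identifiers of the count table. All 32 were also among the 18423 genes with enough counts to be tested. They comprised 2 glucose transporters, 10 genes of upper glycolysis (hexokinase to triose phosphate isomerase), 5 of lower glycolysis, 4 of lactate metabolism, 3 of pyruvate entry, 4 of the pentose phosphate pathway and 4 of HIF and MYC control.

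Glycolysis splits glucose into pyruvate, which is either reduced to lactate and exported or taken into the mitochondrion, while the pentose phosphate pathway draws off glucose 6-phosphate to make NADPH and ribose. The transcription factors HIF-1 and MYC both raise transcription of most enzymes of this route, HIF-1 when oxygen is low and MYC when T cells are activated. Tregs are known for leaning less on glycolysis and more on mitochondrial oxidation than effector T cells, and Foxp3 itself is known to restrain MYC and glycolysis in them.

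Tregs were sorted through a Foxp3 reporter from adult mice of the line RelB-dDC and from littermate controls, both on the C57BL/6 strain, and their RNA was sequenced in bulk. The labels do not spell out the line's name, which is read here as dendritic cells without RelB, a member of the NF-kappaB family; what drives the deletion, and the age in weeks, is not stated in the labels. All groups carried the reporter. There were 2 libraries of peritoneal cavity Tregs from dDC mice and 2 from controls, 2 of thymus Tregs from dDC mice and 3 from controls, and 3 of spleen Tregs from dDC mice and 3 from controls, or 7 dDC libraries and 8 control libraries in all. The labels do not say that each library came from a separate animal, so p-values measure the spread between these libraries, which may in part be technical. In bulk RNA, fewer cells of a type and less RNA per cell cannot be told apart.

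Libraries held 15714286 to 24332044 counts. Foxp3, the defining Treg gene, was present throughout, with 230.1 ± 43.7 and 287 ± 46.4 CPM (read counts relative to library size, TMM-scaled, mean ± SD) in peritoneal dDC and control libraries (n = 2 each), 269 ± 0.857 and 274.5 ± 52.4 CPM in thymus dDC (n = 2) and control (n = 3) libraries, and 236 ± 23.8 and 205 ± 25.3 CPM in spleen dDC and control libraries (n = 3 each). RNA of other cell types was also seen. Summed over 8 B cell markers, the level was 1226 to 2159 CPM in peritoneal dDC libraries and 1027 to 1985 in peritoneal controls, 59.2 to 87.8 in thymus dDC and 42.8 to 76.3 in thymus controls, and 377 to 645.5 in spleen dDC and 315 to 928 in spleen controls. Peritoneal control library 2 stood apart with 1497 CPM summed over 8 macrophage markers, against 61.0 CPM in peritoneal control library 1 and 129.5 and 237 CPM in the peritoneal dDC libraries. Peritoneal dDC library 1 and peritoneal control library 1 had the highest correlation of all pairs (0.931 on log2 CPM over genes), against 0.858 between the peritoneal control libraries and 0.914 between the peritoneal dDC libraries.

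**Figure D1:**
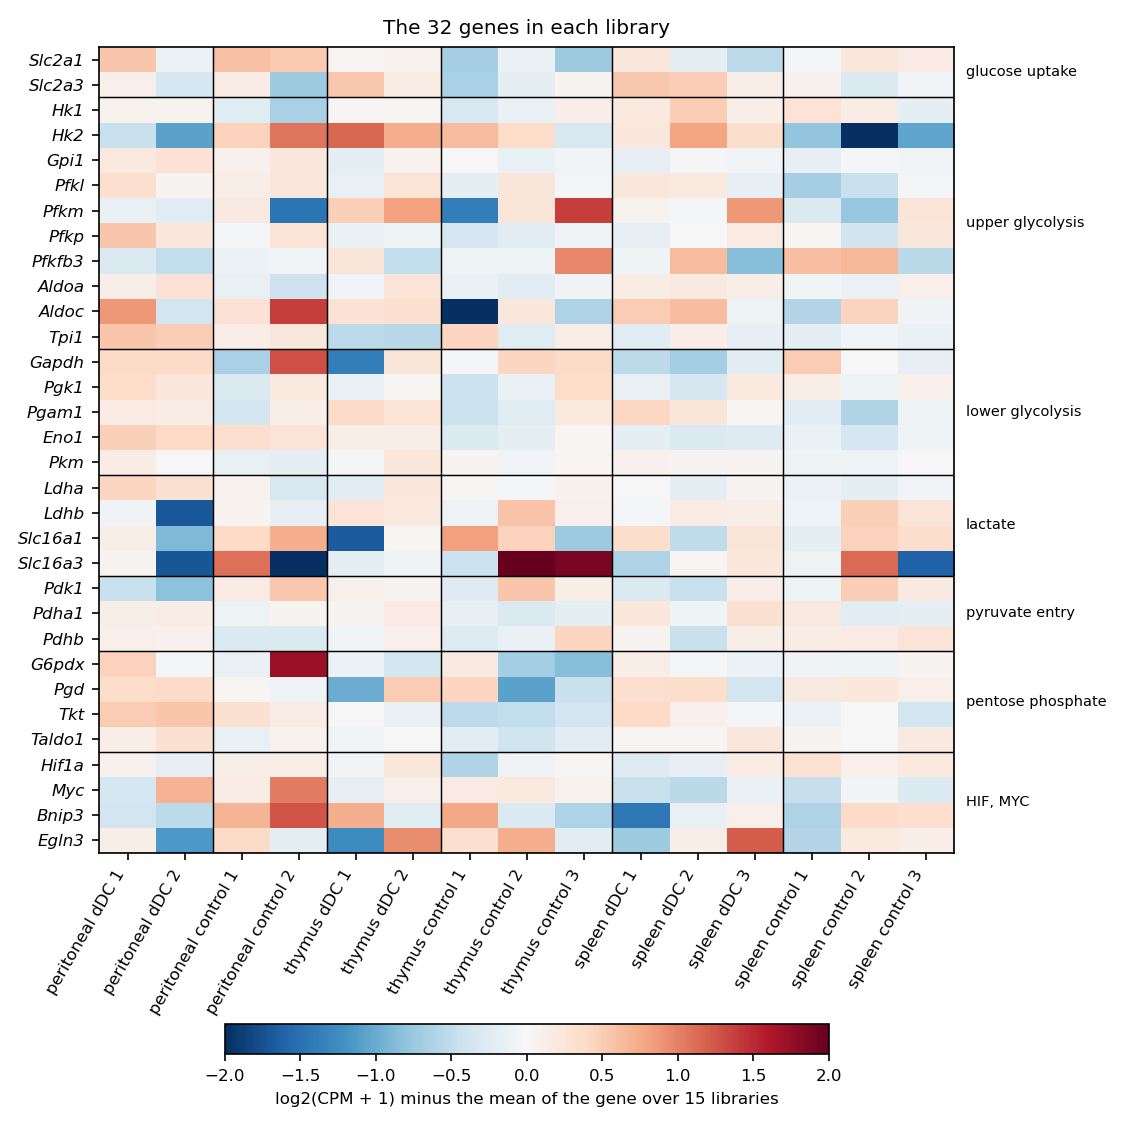
Level of each of the 32 genes (down) in each of the 15 libraries (across), as log2(CPM + 1) minus the gene's mean over the libraries, on a color scale from -2 to 2; black lines part the groups and the roles. The rows of Eno1 and Tkt lie above their means in peritoneal libraries, by small margins on this scale. Tpi1 lies above its mean most in peritoneal dDC libraries and thymus control library 1, and close to it in peritoneal controls. Hk2 is blue in spleen controls and in peritoneal dDC libraries, and G6pdx is dark red in peritoneal control library 2.

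Levels of different genes were compared per length, as RPKM (CPM per kilobase of merged exons), averaged over the 6 group means. Merged exons can be much longer than 1 transcript, so the order of genes depends on this divisor. For Eno1 they measured 5379 bases, against 2027 for its longest coding transcript, and for Myc 2767 against 2338. By transcript length Eno1 would thus stand further above Myc than in the values below. Pyruvate kinase, Pkm, which makes pyruvate, led with 329 RPKM and spanned 285 to 384.5 RPKM over the libraries. Aldolase Aldoa, which splits fructose 1,6-bisphosphate, followed with 315 RPKM (234 to 382), and lactate dehydrogenase Ldha, which turns pyruvate into lactate, with 248 RPKM (194 to 327). The pentose phosphate enzyme Taldo1, transaldolase, reached 145.5 RPKM. Enolase Eno1 averaged 73.8 RPKM, the transcription factor Myc 73.5 RPKM, and glucose 6-phosphate isomerase Gpi1 56.8 RPKM. The abundant mRNAs thus included enzymes of upper and lower glycolysis, lactate production and the pentose phosphate pathway.

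The lowest levels belonged to a HIF hydroxylase and to transporter and hexokinase forms. The rows of the glycolytic enzymes Pgam1 at 2.10 RPKM, Gapdh at 3.62 RPKM and Pgk1 at 5.78 RPKM, whose sequences are shared with copies, were also low. Egln3, a prolyl hydroxylase that marks HIF for degradation, averaged 0.843 RPKM, and the lactate exporter Slc16a3 (MCT4) 0.995 RPKM. Hexokinase Hk2 averaged 1.98 RPKM, Slc16a1 (MCT1) 2.36 RPKM and Pfkfb3, which makes the activator of phosphofructokinase, 5.46 RPKM. Hif1a, the oxygen-regulated subunit of HIF-1, stood in the middle of the order with 20.9 RPKM. Pdk1, the kinase that shuts pyruvate dehydrogenase, averaged 7.56 RPKM, against 57.8 and 62.3 RPKM for the dehydrogenase subunits Pdha1 and Pdhb. The mRNAs of the enzyme were thus more abundant per length than that of its kinase.

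Some rows are uncertain because near-identical copies share their reads. Of the 50-base words in the Gapdh transcript, glyceraldehyde 3-phosphate dehydrogenase, 82.5% also occurred in transcripts of 101 other genes, 94 of them pseudogenes. Its row held 4075 reads in all libraries together, against 10090 in those other rows, so its 3.62 RPKM is no measure of the enzyme's mRNA. The other rows were counted whole. They include Peli2 and Vmn2r60, matched through a processed transcript, so the 10090 are not all reads of Gapdh-like sequence. With the rows of copies added whole, Gapdh had 33.8 to 78.9 CPM over the libraries, Pgk1 15 to 28.5 CPM and Pgam1 2.93 to 6.66 CPM. The Pkm row had 741.5 to 999 CPM without its copies, so adding copies left these rows far below it. The shared portion was 72.2% for Eno1, 68.0% for Pgk1 (phosphoglycerate kinase), 62.4% for Bnip3 (a HIF target that promotes removal of mitochondria), 41.5% for Pgam1 (phosphoglycerate mutase) and 34.4% for Pkm. It was 30.3% for Pdhb, 27.0% for Ldhb, 25.3% for Gpi1 and 7.5% for Tpi1. In the Pdhb row there were 26569 reads, against 8240 in its pseudogene Gm6123. The pseudogene Gm1840 held 54746 reads, against 71658 in the Gpi1 row, and adding them took Gpi1 to 380 to 544.8 CPM over the libraries, against 221 to 306 CPM without them, so the level of Gpi1 is uncertain. The shared portion was 0% for Tkt, Hk2, Myc, Pgd and Slc2a3. On the opposite strand, exons of Ikbkg overlapped 13.6% of the G6pdx exons, Gm26762 overlapped 16.5% of Gpi1 and Map3k15 overlapped 16.1% of Pdha1, and the library chemistry in the labels, adapters ligated to sheared double-stranded cDNA, does not mark strand.

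Among isoenzymes, one form carried most of the mRNA in several families. Hk1 made up 88.9 ± 6.8% of Hk1 and Hk2 together per length over the 15 libraries (SD), with 73.3% in the lowest and 98.5% in the highest library. Aldoa made up 99.0 ± 0.6% of the aldolase pair, whose other member, Aldoc, had no read in thymus control library 1. Ldha made up 82.0 ± 4.9% of the lactate dehydrogenase pair; the remainder was Ldhb, the form that favors the reverse reaction. The phosphofructokinases, which catalyze the committed step, had 46.1 ± 5.9% Pfkp, 39.4 ± 5.2% Pfkl and 14.5 ± 6.6% Pfkm per merged exon length. In that order merged exons measured 9395, 4395 and 2957 bases, against 4145, 3730 and 2879 bases for the longest coding transcripts. By transcript length the Pfkp share would thus be larger and the split less even. Of the Pfkp 50-base words, 17.1% also occurred in Pitrm1, which overlaps it on the opposite strand. Of the glucose transporters, Slc2a3 (GLUT3) made up 58.3 ± 9.1% and Slc2a1 (GLUT1) 41.7 ± 9.1%. Merged exons measured 7245 bases for Slc2a3, against 3959 for its longest coding transcript, and 3506 against 3260 for Slc2a1. That split too depends on the length used. The split of the lactate transporters was the least stable, with Slc16a1 at 28.3% in the lowest and 99.1% in the highest library.

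**Figure D2:**
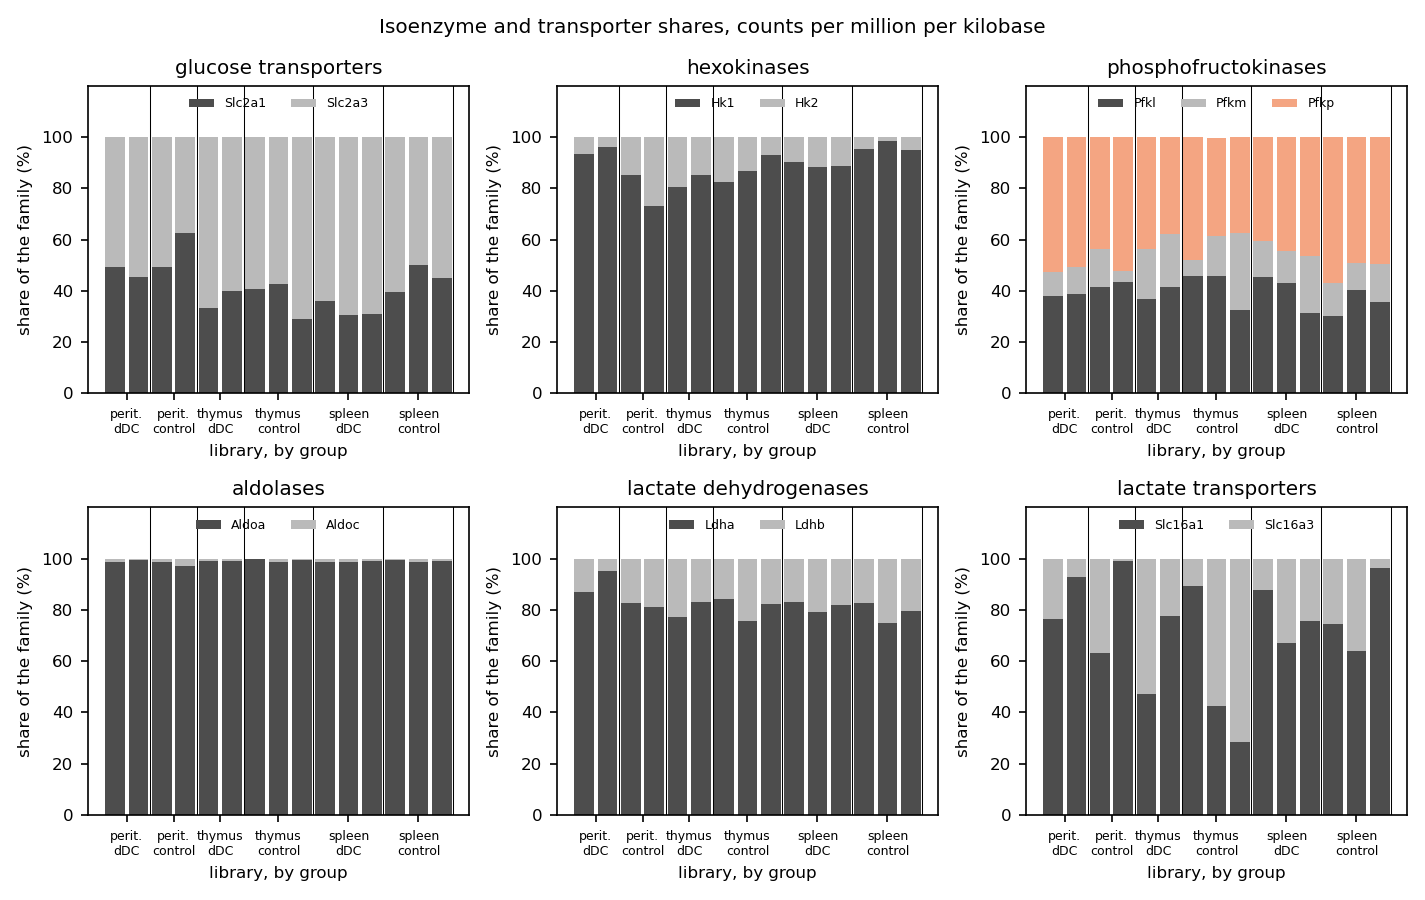
Share of each isoform in its family (percent of the summed CPM per kilobase) in each of the 15 libraries, grouped by tissue and genotype. Hk1, Aldoa and Ldha fill most of their bars in every library, while the Hk2 share ranges from 1.5% to 26.7%.

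As a group the 32 genes varied less between like libraries than other genes did. Their median within-group SD was 0.30 on the log2 scale, against 0.688 over all tested genes, but their median level was also higher, 88.2 CPM against 9.35 CPM. From the lowest to the highest of the 6 group means the median member differed 1.71-fold. Slc16a3 at 6.3-fold and Hk2 at 5.45-fold spanned the widest ranges, and Pkm at 1.21-fold the narrowest.

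The dDC Tregs were compared with control Tregs in each tissue, the contrast the study's groups were made for. No member passed the threshold of 0.05 on the adjusted p (edgeR quasi-likelihood test, Benjamini-Hochberg adjustment over all tested genes) in the peritoneal cavity, where 0.00543% of all tested genes were called, in the thymus, where 0% were called, or in the spleen, where 0% were called. At an unadjusted p under 0.05 there were 7 members in the peritoneal cavity (6.36% of all tested genes), 5 in the thymus (6.57%) and 3 in the spleen (4.27%). DESeq2 called 1 member, Aldoa, in the peritoneal cavity (1.05% of all tested genes called by DESeq2) and 0 in the thymus and the spleen, and limma with voom weights called 0 in each tissue. Members whose dDC libraries all lay above the controls numbered 13 in the peritoneal cavity (18.7% of all tested genes), 10 in the thymus (9.06%) and 5 in the spleen (4.94%). Members whose dDC libraries all lay below numbered 6 (15.4%), 1 (10.3%) and 2 (5.19%) in the same order of tissues.

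Averaged over the 3 tissues with equal weight, dDC over control again gave 0 members past the threshold in edgeR, where 0.0760% of all tested genes were called. DESeq2 called 2, Aldoa and Tkt, among 384 genes called (2.08%), and limma with voom weights called 0. At an unadjusted p under 0.05 there were 8 members, 7 of them higher and 1 lower in dDC libraries, against 9.31% of all tested genes. The median log2 difference of the members was 0.09, beside -0.02 over all tested genes.

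Aldoa had the smallest p of the average. It had 936 and 1051 CPM in peritoneal dDC libraries, against 772 and 646 CPM in peritoneal controls. In the thymus it had 826 and 1025 CPM in dDC libraries, against 783, 732 and 821 CPM in controls. In the spleen it had 949, 977 and 937.5 CPM in dDC libraries, against 828.5, 793 and 917 CPM in controls. The dDC libraries lay above the controls in each tissue, by a small margin in thymus and spleen. The average log2 difference was 0.30 (SE 0.0666, adjusted p 0.156), and the peritoneal difference 0.49 (SE 0.127, adjusted p 0.412), both from edgeR.

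Tkt, transketolase, which links the pentose phosphate pathway back to glycolysis, came next. Its libraries had 462 and 479.7 CPM in peritoneal dDC Tregs, against 400.1 and 360.3 CPM in peritoneal controls. Thymus dDC libraries had 326 and 295.5 CPM, against 226.5, 232 and 250.3 CPM in thymus controls. Spleen dDC libraries had 431, 347.5 and 321 CPM, against 300.1, 326 and 253 CPM in spleen controls. The dDC libraries were all above the controls in the peritoneal cavity and the thymus, and overlapped them in the spleen. The average log2 difference was 0.34 (SE 0.0808, edgeR adjusted p 0.199), with 0.31, 0.40 and 0.32 in peritoneal cavity, thymus and spleen.

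Pdk1 had the next smallest p. It had 41.9 and 31.9 CPM in peritoneal dDC libraries, against 64.0 and 83.5 CPM in peritoneal controls, without overlap, a log2 difference of -0.999 (SE 0.308, edgeR adjusted p 0.579), and its average over tissues was -0.50 (adjusted p 0.359). Ldha had 974 and 893 CPM in peritoneal dDC libraries, against 761 and 577 CPM in peritoneal controls, a log2 difference of 0.48 (SE 0.159, edgeR adjusted p 0.627). The same gene differed by -0.01 in the thymus and 0.08 in the spleen. Tpi1, triose phosphate isomerase, had 47.8 and 46.7 CPM in thymus dDC libraries, against 93.4, 58.4 and 74.6 CPM in thymus controls, a log2 difference of -0.67 (SE 0.197, edgeR adjusted p 0.746). Pfkl had 111, 109 and 85 CPM in spleen dDC libraries, against 59.6, 69.5 and 93.5 CPM in spleen controls, a log2 difference of 0.45 (SE 0.199, edgeR adjusted p 1), and the groups overlapped.

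Of the other members, Slc2a3 averaged 0.40 on the log2 scale over the tissues (edgeR adjusted p 0.469), Hk1 0.28 (adjusted p 0.464), Pdha1 0.23 (0.432), Taldo1 0.17 (0.452) and Pkm 0.15 (0.416). The Slc2a1 average was -0.01. Summed macrophage markers in the peritoneal cavity, given above, differed most between the control libraries, and their part in the dDC differences was not tested.

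**Figure D3:**
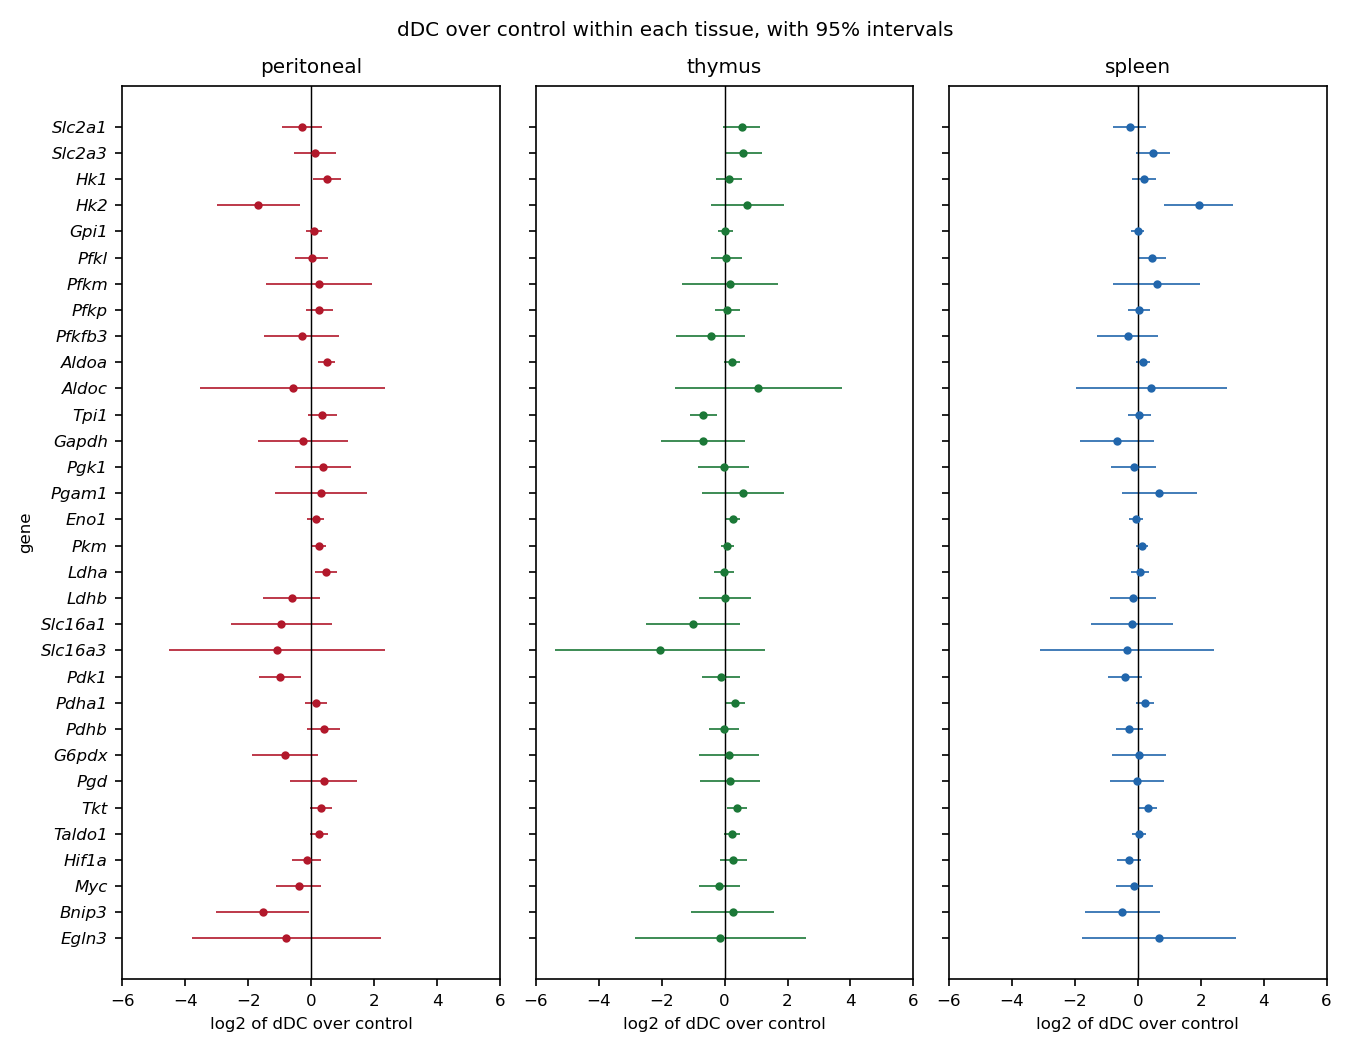
The log2 difference of dDC over control for each of the 32 genes (down) in peritoneal cavity, thymus and spleen, with bars for the 95% interval from edgeR. Most bars cross 0, and the bars that do not, such as those of Hk2 in spleen and peritoneal cavity, belong to differences that miss the threshold after adjustment.

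The precision differed widely between members. For the Gpi1 row, without its pseudogene, the 95% interval of the log2 difference was -0.18 to 0.35 in the peritoneal cavity, -0.22 to 0.26 in the thymus and -0.22 to 0.21 in the spleen. Pkm had intervals of 0.02 to 0.47, -0.12 to 0.29 and -0.05 to 0.31 in the same tissues. For Gpi1 and Pkm the intervals thus stayed within 0.47 of 0 on the log2 scale. This does not hold for all abundant enzymes, as the peritoneal differences of Aldoa and Ldha given above were themselves larger. The rare mRNAs were not resolved, with intervals of -4.52 to 2.33 for Slc16a3, -3.79 to 2.2 for Egln3 and -3.53 to 2.35 for Aldoc in the peritoneal cavity. The HIF and MYC genes had log2 differences of -0.15 (Hif1a), -0.40 (Myc) and -1.54 (Bnip3, 95% interval -3.02 to -0.07) in the peritoneal cavity, none past the threshold.

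Hk2, the hexokinase isoform that activated T cells raise, differed in opposite directions between tissues. Peritoneal dDC libraries had 6.745 and 4 CPM, against 13.45 and 21.2 CPM in peritoneal controls. Thymus dDC libraries had 22.3 and 16.5 CPM, against 15.4, 12.6 and 7.41 CPM in thymus controls. Spleen dDC libraries had 11.2, 17.15 and 12.4 CPM, against 5.08, 1.52 and 4.08 CPM in spleen controls. The dDC libraries lay below all controls in the peritoneal cavity and above all controls in the thymus and the spleen. The log2 difference was -1.69 (SE 0.607, edgeR adjusted p 0.669) in the peritoneal cavity, 0.72 (adjusted p 0.824) in the thymus and 1.93 (SE 0.5, adjusted p 1) in the spleen. As a share of the hexokinase pair, Hk2 held 5.2% in peritoneal dDC and 20.8% in peritoneal control libraries, 17.1% in thymus dDC and 12.5% in thymus control libraries, and 10.8% in spleen dDC and 3.6% in spleen control libraries.

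The difference between tissues in the dDC effect was tested as an interaction. For Hk2 it was -3.62 on the log2 scale for peritoneal cavity against spleen (SE 0.79, edgeR adjusted p 0.92), whereas DESeq2 gave -3.64 with an adjusted p of 0.00539. Against the thymus the peritoneal interaction of Hk2 was -2.40 (edgeR adjusted p 0.84). Over the members, edgeR called 0 interactions for peritoneal cavity against spleen (0% of all tested genes), 0 for thymus against spleen (0%) and 0 for peritoneal cavity against thymus (0%). Unadjusted p under 0.05 was reached by 1 member (4.89% of all tested genes), 2 members (5.06%) and 3 members (5.72%) in those interactions. DESeq2 called 1 member (0.271% of all tested genes), 0 and 0, and limma with voom weights called 0 in each. The thymus against spleen interaction had its smallest p for Tpi1 (-0.73), Slc2a1 (0.81) and Hif1a (0.56), each with an edgeR adjusted p of 0.965. Hk2 was read by 3219 counts over all libraries, few beside the 94907 of Tkt.

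Where the tissues were set against each other, the calls of edgeR fell on 3 enzymes. Eno1 was higher in peritoneal than in spleen Tregs of dDC mice, Tkt higher in peritoneal than in thymus Tregs of controls, and Tpi1 higher in peritoneal than in thymus Tregs of dDC mice, without a call in controls. In controls, peritoneal over thymus gave 1 member past the threshold, Tkt, where 2.47% of all tested genes were called. In dDC mice, peritoneal over spleen gave 1 member, Eno1 (0.906% of all tested genes), and peritoneal over thymus gave 1 member, Tpi1 (1.35%). Each of these called members was higher in the peritoneal cavity. With an unadjusted p under 0.05 there were 4 members (14.1% of all tested genes), 6 members (8.64%) and 8 members (11.3%) in these 3 comparisons. DESeq2 called 4 members for peritoneal over thymus in controls (7.56% of all tested genes), 1 for peritoneal over spleen in dDC mice (3.22%) and 3 for peritoneal over thymus in dDC mice (5.29%).

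In 3 comparisons no member passed the threshold in edgeR. Peritoneal over spleen in controls gave 0 (0.792% of all tested genes were called), with 9 members at an unadjusted p under 0.05 (10.6% of all tested genes); DESeq2 called 2, Eno1 and Hk2 (4.15% of all tested genes), and limma with voom weights 0. The smallest p belonged to Eno1, to Hk2 (log2 difference 2.28, edgeR adjusted p 0.0903) and to Myc (0.92, adjusted p 0.258). Thymus over spleen in controls gave 0 (0.603%), with 5 members at an unadjusted p under 0.05 (9.79%); DESeq2 called 1, Hk2 (3.18%), and limma with voom weights 0. The smallest p there belonged to Hk2 (1.73, edgeR adjusted p 0.218), Taldo1 (-0.35, adjusted p 0.23) and Slc2a1 (-0.61, adjusted p 0.43). Thymus over spleen in dDC mice gave 0 (0.179%), with 2 members at an unadjusted p under 0.05 (7.75%), and DESeq2 and limma with voom weights called 0 each. Eno1 (0.37, edgeR adjusted p 0.398), Tpi1 (-0.47, adjusted p 0.624) and Tkt (-0.24, adjusted p 0.704) had the smallest p. The comparisons share libraries, so their values are set side by side and their overlap was not tested.

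The mean of the tissue difference over both genotypes, a comparison added after the data had been seen, used more libraries. It gave 1 member for peritoneal cavity over spleen, Eno1 (2.89% of all tested genes called), and 3 for peritoneal cavity over thymus, Tkt, Eno1 and Tpi1 (5.61%). It gave 0 in edgeR for thymus over spleen (1.32%), where DESeq2 called 1, Hk2 (5.28%), and limma with voom weights 0. Taldo1 (-0.25, edgeR adjusted p 0.186), Hk2 (1.12, adjusted p 0.194) and Tkt (-0.28, adjusted p 0.231) had the smallest p there. At an unadjusted p under 0.05 there were 8 members (14.4% of all tested genes), 8 members (18.2%) and 4 members (12.6%) in the same 3 comparisons. Among the members, 1 of 5 genes of lower glycolysis, 1 of 10 of upper glycolysis and 1 of 4 of the pentose phosphate pathway were thus called by edgeR in these comparisons, and none of the 2 glucose transporters, 4 lactate genes, 3 pyruvate entry genes and 4 genes of HIF and MYC control. DESeq2 called 5 members for peritoneal cavity over spleen, adding Myc, Gpi1, Tkt and Tpi1 (6.73% of all tested genes called by DESeq2), and 7 for peritoneal cavity over thymus, adding Slc2a1, G6pdx, Gpi1 and Pfkp (11%).

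Eno1 (ENSMUSG00000063524, chr4:150236721-150248879 on the plus strand of mm10) makes phosphoenolpyruvate. It had 525 and 500.1 CPM in peritoneal dDC libraries and 479 and 451 CPM in peritoneal controls. Thymus libraries had 409 and 413 CPM in dDC mice and 312, 329.6 and 388 CPM in controls, and spleen libraries had 335, 307 and 314 CPM in dDC mice and 344, 299.8 and 355 CPM in controls. The 4 peritoneal libraries lay above the other 11 libraries. Peritoneal over spleen was 0.69 on the log2 scale in dDC mice (SE 0.111, edgeR adjusted p 0.0151), 0.48 in controls (SE 0.111, adjusted p 0.0822) and 0.58 over both genotypes (SE 0.0787, adjusted p 0.0018). Over both genotypes peritoneal over thymus was 0.38 (SE 0.0832, edgeR adjusted p 0.019). The call over spleen for both genotypes was made without each library in turn, 15 of 15 times, and the call over thymus 10 of 15 times, with adjusted p up to 0.0803 without peritoneal control library 1, either peritoneal dDC library or either thymus dDC library. In dDC mice alone the call over spleen was made 11 of 15 times, and not without peritoneal dDC library 1 or 2 (adjusted p 0.122 and 0.107) or spleen dDC library 2 or 3 (0.0696 and 0.0711). With the reads of its 3 near-identical copies added, peritoneal over spleen was 0.61 (edgeR adjusted p 0.00125).

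Tkt (ENSMUSG00000021957, chr14:30548359-30574722, plus strand) shares no 50-base word with another gene. Its values by library are given above. The 4 peritoneal libraries, at 360.3 to 479.7 CPM, lay above the 5 thymus libraries, at 226.5 to 326 CPM, while the spleen libraries, at 253 to 431 CPM, overlapped both. Peritoneal over thymus was 0.69 in controls (SE 0.139, edgeR adjusted p 0.0238), 0.60 in dDC mice (SE 0.154, adjusted p 0.0962) and 0.64 over both genotypes (SE 0.104, adjusted p 0.00347). The last of these was called without each library in turn, 15 of 15 times. In controls alone the call was made 10 of 15 times, and it was not made without peritoneal control library 2, whose macrophage markers were high (0.76, edgeR adjusted p 0.0848), without peritoneal control library 1 (0.61, adjusted p 0.0994), or without thymus control library 1, 2 or 3 (adjusted p 0.0781, 0.0702 and 0.0532).

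Tpi1 (ENSMUSG00000023456, chr6:124810586-124814296, minus strand) had 101 and 97.4 CPM in peritoneal dDC libraries and 75.4 and 80.9 CPM in peritoneal controls. Thymus libraries had 47.8 and 46.7 CPM in dDC mice and 93.4, 58.4 and 74.6 CPM in controls. Spleen libraries had 59.4, 75.4 and 61.4 CPM in dDC mice and 60.4, 66.3 and 62.6 CPM in controls. In dDC mice the peritoneal libraries lay above the thymus libraries, a fold of 2.1 between the groups, and in controls the tissues overlapped. Peritoneal over thymus was 1.07 in dDC mice (SE 0.214, edgeR adjusted p 0.0305) and 0.05 in controls (adjusted p 0.96), and the interaction between them was 1.02 (SE 0.288, unadjusted p 0.00408, edgeR adjusted p 0.84). The call in dDC mice was made in 10 of 15 fits with 1 library left out, and not without peritoneal dDC library 1 or 2 (adjusted p 0.14 and 0.15), thymus dDC library 1 or 2 (0.205 and 0.109) or spleen dDC library 3 (0.05). The value over both genotypes, 0.56 (adjusted p 0.0402), was past the threshold in 2 of 15 such fits, those without spleen dDC library 2 and without thymus control library 1, and reached an adjusted p of 0.126 in the others.

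**Figure D4:**
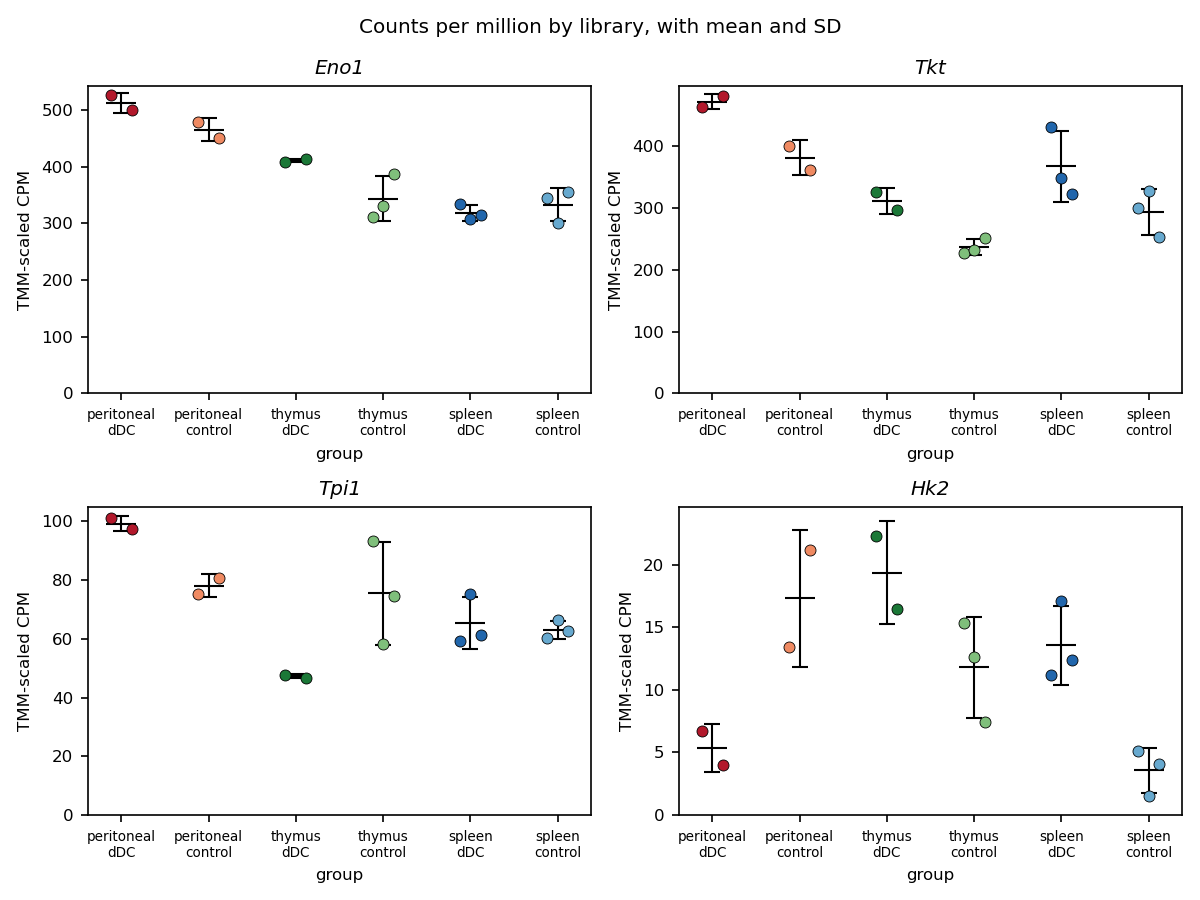
TMM-scaled CPM of Eno1, Tkt, Tpi1 and Hk2 in each library (points) with the mean and SD of each group (bars), for dDC and control Tregs of peritoneal cavity, thymus and spleen. Peritoneal libraries are highest for Eno1, and Hk2 is lower in dDC than in control libraries of the peritoneal cavity and higher in those of the spleen.

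Markers of other cells differed between the same tissues. For peritoneal over thymus, 7 of 8 B cell markers were higher past the threshold in controls and 7 of 8 in dDC mice, with the summed levels given above; Pax5 and Blk had no read in either thymus dDC library, and no B cell marker was at 0 in a peritoneal library. Of 6 Treg markers, Ikzf2, Il2ra and Ctla4 fell for peritoneal over thymus over both genotypes. Summed proliferation markers were 243 to 299 CPM in peritoneal dDC and 214 to 215.5 CPM in peritoneal control libraries, 278 to 355 CPM in thymus dDC and 274 to 347 CPM in thymus control libraries, and 363 to 574 CPM in spleen dDC and 252 to 463 CPM in spleen control libraries. The macrophage sum was 4.98 to 10.8 CPM in thymus dDC and 2.07 to 26.5 CPM in thymus control libraries, with Adgre1, Cd14 and C1qa among those at 0 in each thymus dDC library; 2 of 8, Adgre1 and Lyz2, were called higher in the peritoneal cavity than in the thymus over both genotypes. The part of these cells in the differences of Eno1, Tkt and Tpi1 was not tested. Over both genotypes, leaving out each library in turn gave log2 differences of 0.55 to 0.61 for Eno1 in peritoneal cavity over spleen. For peritoneal cavity over thymus it gave 0.35 to 0.43 for Eno1, 0.61 to 0.68 for Tkt and 0.48 to 0.65 for Tpi1. B cell markers were read in every peritoneal library, so leaving out 1 library cannot address their part.

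Peritoneal control library 2 held the highest peritoneal values of some members. Glucose 6-phosphate dehydrogenase, G6pdx, the entry enzyme of the pentose phosphate pathway, had 81.7 and 57.2 CPM in peritoneal dDC libraries, against 53.7 CPM in peritoneal control library 1 and 195 CPM in library 2. Myc had 146.5 and 305 CPM in peritoneal dDC libraries, against 208 and 388 CPM in controls. Gapdh had 17.6 and 17.7 CPM in peritoneal dDC libraries, against 8.17 and 34.1 CPM in controls. In each of these the second control library was the highest of the 4. For Myc it did not stand apart, since the second dDC library also lay above the first library of either genotype. Myc for peritoneal over spleen in controls ranged from 0.40 to 1.30 on the log2 scale when 1 library was left out (edgeR adjusted p 0.0643 to 0.927).

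Promoters of the 4 genes above are shown to let the eye compare the letters that HIF and MYC bind, in windows of 250 bases before to 50 after a RefSeq transcript start (build GRCm38.p6, each written 5′ to 3′ on the gene's strand). Capitals mark ACGTG or GCGTG on either strand, the core of the hypoxia response element. The windows are chr4:150236458-150236757 (plus strand) for Eno1, chr14:30548881-30549180 (plus) for Tkt, chr6:124814109-124814408 (minus) for Tpi1 and chr6:82774405-82774704 (minus) for Hk2. The Eno1 window is 1 of 3 for that gene, and its start lies 244 bases from the principal start in GENCODE M21; that of the Tpi1 window lies 138 bases from it.
Eno1: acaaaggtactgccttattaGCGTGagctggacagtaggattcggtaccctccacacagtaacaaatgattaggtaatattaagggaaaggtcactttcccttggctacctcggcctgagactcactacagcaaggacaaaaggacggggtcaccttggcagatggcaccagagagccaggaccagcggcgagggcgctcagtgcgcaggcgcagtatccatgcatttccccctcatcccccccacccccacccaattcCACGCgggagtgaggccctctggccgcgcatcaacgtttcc
Tkt: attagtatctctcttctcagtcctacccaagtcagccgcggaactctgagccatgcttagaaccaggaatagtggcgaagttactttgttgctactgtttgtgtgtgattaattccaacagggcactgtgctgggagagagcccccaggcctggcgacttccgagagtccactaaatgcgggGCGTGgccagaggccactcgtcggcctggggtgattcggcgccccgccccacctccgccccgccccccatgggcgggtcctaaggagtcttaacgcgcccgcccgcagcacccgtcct
Tpi1: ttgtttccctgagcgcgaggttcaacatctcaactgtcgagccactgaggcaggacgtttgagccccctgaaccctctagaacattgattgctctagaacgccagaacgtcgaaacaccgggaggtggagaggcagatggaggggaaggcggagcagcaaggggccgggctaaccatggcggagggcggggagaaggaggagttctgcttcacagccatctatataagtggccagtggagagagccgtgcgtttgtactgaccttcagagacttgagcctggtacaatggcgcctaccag
Hk2: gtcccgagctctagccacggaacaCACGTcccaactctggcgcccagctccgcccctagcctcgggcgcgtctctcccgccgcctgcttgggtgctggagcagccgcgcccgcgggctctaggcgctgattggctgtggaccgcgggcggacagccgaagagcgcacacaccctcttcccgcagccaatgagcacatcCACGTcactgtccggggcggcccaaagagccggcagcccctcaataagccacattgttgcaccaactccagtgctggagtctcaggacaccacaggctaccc
The Eno1 and Hk2 windows held 2 matches each, Tkt 1 and Tpi1 0. Windows were found for 30 of the 32 members, and 26 of them (86.7%) held at least 1 match, against 61.8% of 10162 tested genes with a window. The MYC E-box CACGTG stood in 6 member windows (20%), against 9.78% of tested genes, and in none of the 4 shown. Its letters contain ACGTG on each strand, so each E-box also counts as 2 matches of the hypoxia motif. Ldha had 7 matches of the hypoxia motif, the most of any member. Its window held 2 E-boxes, each counted 2 times among these matches. A match is a description of letters, and its absence says only that they are not in this window.

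A wider set of 111 genes of the same pathways, of which 100 were tested, was read beside the members. For dDC over control edgeR called 0 of them in each tissue and on average; at an unadjusted p under 0.05 there were 4 higher and 2 lower in the peritoneal cavity (6.36% of all tested genes in either direction), 2 and 4 in the thymus (6.57%), 1 and 2 in the spleen (4.27%), and 5 and 5 on average (9.31%). For peritoneal over spleen in controls (0.792% of all tested genes called), Bpgm, which diverts a glycolytic intermediate to 2,3-bisphosphoglycerate and is known from red cells, fell by 2.04 on the log2 scale (SE 0.401, edgeR adjusted p 0.0416). The 6 erythroid markers summed to 9.57 to 100.4 CPM in those peritoneal controls and 2941 to 7992 CPM in spleen controls, and their part in this was not tested. Mxd4, a MAX partner that opposes MYC, fell by 1.09 in the same comparison (adjusted p 0.0466) and by 1.51 for peritoneal over thymus in controls (adjusted p 0.00391). Its levels were 89.3 and 103 CPM in peritoneal controls, against 239 to 332 CPM in thymus controls and 169 to 270.2 CPM in spleen controls; the peritoneal libraries overlapped neither.

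Of the 19 tested genes of the wider glycolysis list, 2, Eno3 and Bsg, were lower and 0 higher for peritoneal over thymus in controls (2.47% of all tested genes were called), 1, Eno3, was lower and 0 higher in dDC mice (1.35%), and over both genotypes 2 were lower and 1, Gpd2, higher (5.61%). At an unadjusted p under 0.05, 2 were higher in controls (14.1% of all tested genes in either direction) and 2 in dDC mice (11.3%). The genes called lower also passed this cutoff. Eno3, the muscle-type enolase, had 13.7 and 19.1 CPM in peritoneal dDC libraries, against 89.2 and 58.7 CPM in thymus dDC libraries, and fell by 2.17 on the log2 scale (SE 0.445, edgeR adjusted p 0.0353), the opposite direction to Eno1. In controls Eno3 fell by 2.01 (adjusted p 0.0276). Bsg, basigin, the partner that carries MCT1 and MCT4 to the cell surface, had 22.9 and 38.2 CPM in peritoneal controls, against 99.9 to 124 CPM in thymus controls, and fell by 1.85 (SE 0.375, edgeR adjusted p 0.024). In the wider HIF list, for peritoneal over spleen in dDC mice (0.906% of all tested genes called), 1 of 23 tested genes was called. This was Ndrg1, a HIF target, which had 17.4 and 33.6 CPM in peritoneal dDC libraries, against 1.12 to 4.75 CPM in spleen dDC libraries, a log2 difference of 3.32 (SE 0.626, edgeR adjusted p 0.0314).

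Over both genotypes, 3 wider genes were higher and 5 lower past the threshold for peritoneal over spleen (2.89% of all tested genes were called). The higher ones were Pgm2l1, which makes glucose 1,6-bisphosphate (log2 difference 1.99, edgeR adjusted p 0.00335), the collagen prolyl hydroxylase and HIF target P4ha1 (1.11, adjusted p 0.0167) and Ndrg1 (1.93, adjusted p 0.0335). The lower ones were Slc3a2, Mxd4, Max, Ddit4 and Bpgm, which fell by 0.89, 0.76, 1.02, 1.91 and 1.15 on the log2 scale. Of the HIF targets, P4ha1 and Ndrg1 were thus higher while Ddit4, an inhibitor of mTORC1, was lower. For peritoneal over thymus (5.61% of all tested genes called) 4 were higher, namely Gpd2, P4ha1, Tktl1 and H6pd (log2 differences 1.21, 1.02, 1.46 and 2.00), and 5 were lower, namely Mxd4, Eno3, Bsg, Slc3a2 and Epas1. Epas1, the HIF-2 alpha subunit, had 2.57 and 4.28 CPM in peritoneal dDC libraries, against 15.5 and 1.47 CPM in thymus dDC libraries, and no read in either peritoneal control library, against 1.97, 0.654 and 2.81 CPM in thymus controls. In dDC mice the tissues overlapped. For thymus over spleen (1.32% called), Eno3, Ndrg1 and Mxd1 were higher (1.67 on the log2 scale for Eno3 and 1.74 for Mxd1). Of 20 mTOR pathway genes edgeR called 0 in these 3 comparisons, with 1 higher and 2 lower at an unadjusted p under 0.05 for peritoneal over spleen (14.4% of all tested genes in either direction), 0 and 4 for peritoneal over thymus (18.2%), and 2 and 0 for thymus over spleen (12.6%).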

How the data were processed

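RNA of sorted Tregs was sequenced in bulk, and the authors deposited 1 table of raw counts per gene. Per the submitters' processing notes, bcl2fastq 2.19.1, GSNAP and featureCounts 1.6.0 were used with mm10; the strand setting is not given in the sources used here. Groups came from the labels. The 92 spike-in rows (at most 6 counts, or 3.19e-05% of a library) were left out. Counts were tested with edgeR 4.0.16 (robust quasi-likelihood, TMM, filterByExpr, 1 model of 6 groups, 9 residual degrees of freedom, R 4.3.3), with Benjamini-Hochberg adjustment over 18423 genes and a threshold of 0.05. Alternatives were limma 3.58.1 with voom weights, DESeq2 1.42.0, other filters and scaling, only the compared libraries, and leaving out each library. CPM were TMM-scaled, and RPKM divides them by kilobases of merged exons. The edgeR steps were tested on simulated data.

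The members and gene lists were chosen with earlier results of these data known. Genes past the threshold were named, or the 3 with the smallest p where none passed, and up to 4 per wider list; further members were chosen after their values were seen. Sequences shared with other genes were found as 50-base words of GENCODE M21 transcripts, and promoter windows came from RefSeq.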

Additional observations from a re-analysis of the deposited data

Results flagged for a closer look

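Differences between dDC and control libraries ran in opposite directions, without overlap in either tissue, for 4 pairs of a member and 2 tissues. Hk2 had an interaction of -3.62 on the log2 scale for peritoneal cavity against spleen (edgeR adjusted p 0.92) and of -2.40 for peritoneal cavity against thymus (adjusted p 0.84). Pdhb, a pyruvate dehydrogenase subunit, had 98.7 and 98.0 CPM in peritoneal dDC libraries, against 74.9 and 75.3 CPM in peritoneal controls, and 95.4, 67.2 and 99.4 CPM in spleen dDC libraries, against 102, 103.5 and 110 CPM in spleen controls, an interaction of 0.66 (adjusted p 0.998). Tpi1 had an interaction of 1.02 for peritoneal cavity against thymus (adjusted p 0.84). None passed the threshold in edgeR. Part of the Pdhb sequence is shared with a pseudogene, as given above. Such opposite shifts occurred in 1.34% of all tested genes for peritoneal cavity and spleen (2 members) and in 2.44% for peritoneal cavity and thymus (2 members).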

How the results depend on the processing

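No result reversed. DESeq2 called more members than edgeR: 1 instead of 0 for dDC over control in the peritoneal cavity, 2 instead of 0 on average, 2 instead of 0 for peritoneal over spleen in controls, 1 instead of 0 for thymus over spleen in controls, 4 instead of 1 for peritoneal over thymus in controls, 3 instead of 1 for peritoneal over thymus in dDC mice, and 1 instead of 0 for the peritoneal and spleen interaction. Over both genotypes it called 5 instead of 1 (peritoneal over spleen), 1 instead of 0 (thymus over spleen) and 7 instead of 3 (peritoneal over thymus). Over all tested genes it called 194 for dDC over control in the peritoneal cavity, 153 in the thymus, 33 in the spleen and 384 on average, against 1, 0, 0 and 14 in edgeR. A minimum of 5 CPM in 2 libraries gave 1 for peritoneal over spleen and 3 for peritoneal over thymus in controls. Limma with voom weights gave 2 for peritoneal over thymus in controls and 2 for peritoneal over spleen over both genotypes. With only the compared libraries fitted, 0 were called for peritoneal over thymus in controls, and 0 in dDC mice for peritoneal over spleen and over thymus, with fewer libraries to estimate the spread. Without a filter there were 0 for peritoneal over thymus in dDC mice, and over both genotypes 2 over spleen and 1 over thymus. The shares of all tested genes called with limma, the minimum of 5 CPM or no filter are not given here. These counts of members are therefore not set against a general rate. Leaving out 1 library gave 0 to 1 members for each peritoneal comparison within a genotype, and 1 to 3 for both peritoneal comparisons over both genotypes. The cause of these changes was not tested. No paired analysis was possible because the labels carry library numbers that no groups share. Slc16a3, Egln3 and Aldoc varied most between like libraries and were not resolved.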
